A study of Mus musculus with 6 samples.

Results

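Notch1, Notch2, Jag1, Hey1, Hes6, Ncstn, Aph1a and Psen2 are 8 genes of Notch signalling and of gamma-secretase, the membrane protease that cuts Notch receptors. They were taken by symbol from the 7486 genes with a probe set of their own in the mouse Clariom D array values used here. Each gene was read from its probe set of highest mean level among those annotated with that symbol alone, and all 8 were found. Of the 7530 probe sets with 1 symbol in these values, 7439 lay on chromosomes 1 to 4. Counts and shares of all probe sets, and the adjustment, refer to these values alone, not to the whole array. A gene without a probe set here may still be on the array. The arrays measured RNA of Melan-a, a line of pigmented melanocytes from C57BL/6 mice, 24 hours after transfection. The siDicer cultures received a small interfering RNA (siRNA) directed at Dicer, which cuts microRNA precursors, and the siScr cultures a control siRNA.

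Each group held 3 arrays, described by the submitters as biological replicates, and replicates 1, 2 and 3 came from cells at passages 47, 54 and 56 in both groups. All cells, controls included, were grown in 10% serum with 200 nM of the phorbol ester TPA and received 50 pmol of siRNA per well with a lipid and a magnetic reagent. Dicer1 was not analysed here, so the knockdown rests on the labels. The cultures stem from a single cell line, and RNA came from whole cultures, in which fewer cells of a type and less RNA per cell cannot be told apart.

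Notch receptors are bound by Jagged or Delta-like ligands on a neighbouring cell. The receptor is then cut outside the membrane by an ADAM protease and within it by gamma-secretase, and the freed intracellular part joins RBPJ and Mastermind in the nucleus to switch on Hes and Hey genes. Gamma-secretase is built from a catalytic presenilin, nicastrin, Aph1 and Pen-2, and it also cuts many other single-pass membrane proteins. In the melanocyte lineage Notch signalling is known for keeping melanoblasts and melanocyte stem cells in the hair follicle.

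Of the 8 genes, 1 passed the test and rose in siDicer cells: Ncstn, which encodes nicastrin. The other 7 did not pass. The test was limma's moderated test on log2 signals with siDicer and siScr paired by replicate number, called at a Benjamini-Hochberg adjusted p under 0.05 over all 16383 probe sets. In that fit 0.995% of all probe sets were called, 124 higher (0.757%) and 39 lower in siDicer, or 54 and 30 when the arrays were quantile normalized. Of the 5148 probe sets with 1 symbol and a level above background, 1.9% were called. Log2 changes of the 8 genes ran from -0.14 to 0.53 with a median of 0.11, and the median of all probe sets was -0.01.

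**Figure D1:**
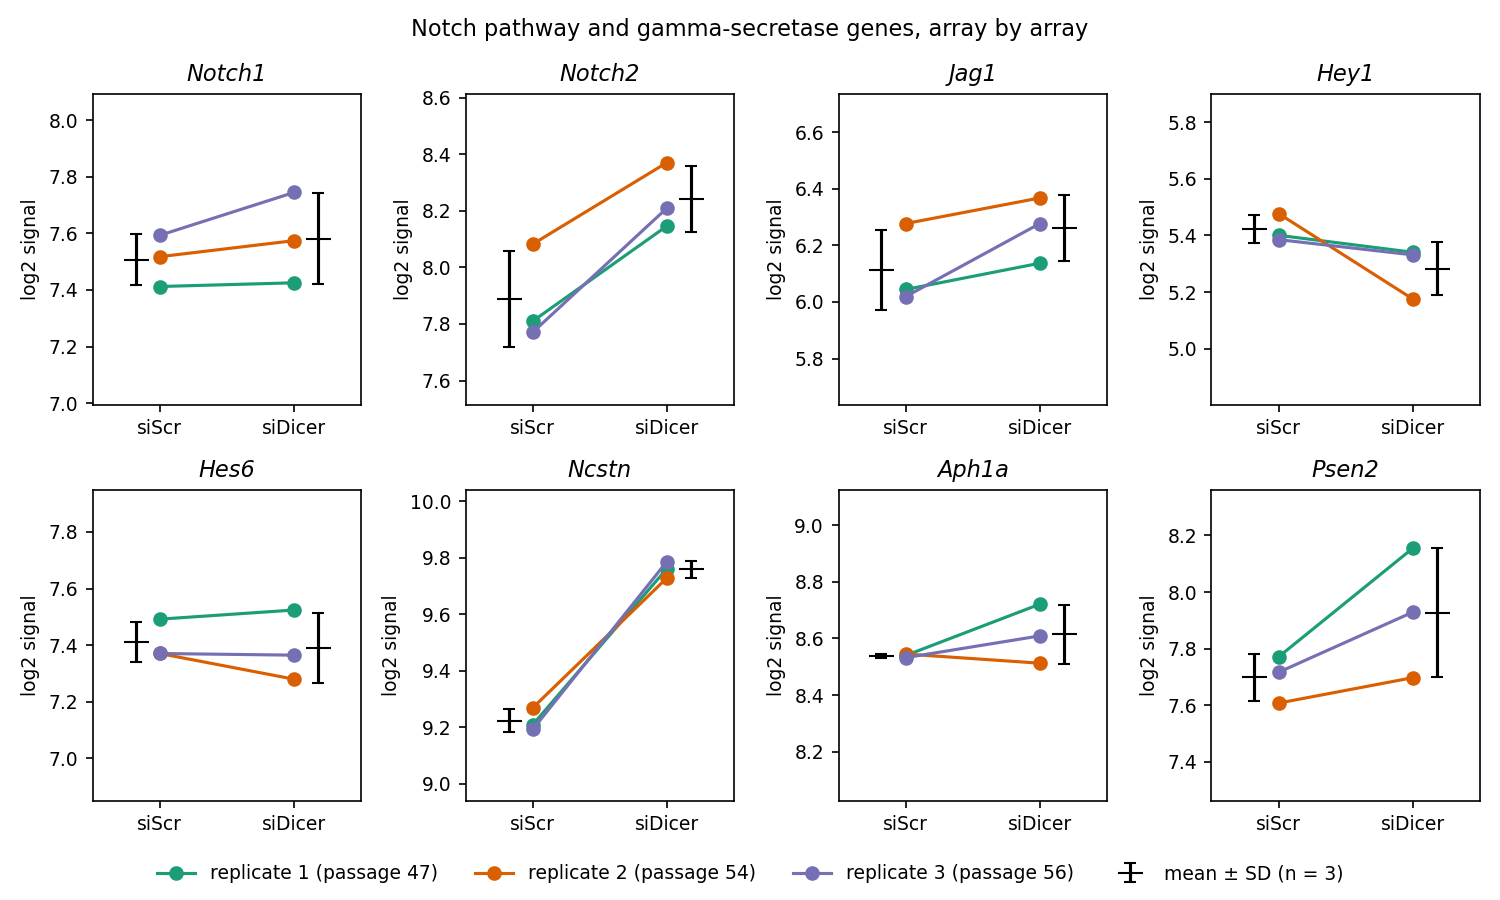
Log2 signal of each of the 8 genes (vertical axes, each spanning the same number of log2 units) on the siScr and siDicer arrays. Coloured lines join arrays of the same replicate number and passage, and black marks give the group mean ± SD (n = 3). The 3 Ncstn lines climb side by side from 9.22 ± 0.04 to 9.76 ± 0.03, the Notch2 lines climb with wider spacing, and the Hes6 lines stay nearly level.

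Nicastrin is the large glycosylated subunit of gamma-secretase, whose outer part screens the stubs of membrane proteins before they are cut. The siScr arrays of replicates 1, 2 and 3 gave Ncstn log2 signals of 9.21, 9.27 and 9.19, and the siDicer arrays 9.76, 9.73 and 9.79. Every siDicer array lay above every siScr array, and within each group the arrays were close together. The means were 9.76 ± 0.03 in siDicer and 9.22 ± 0.04 in siScr (SD, n = 3 each), which is a 1.45-fold difference with a 95% interval of 1.32 to 1.59. This is a log2 change of 0.53 ± 0.06 (SE; limma with the replicate block, adjusted p = 0.0282). By pair the log2 differences were 0.55, 0.46 and 0.59.

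By its unadjusted p Ncstn stood at rank 35 among all probe sets in the paired fit and at rank 8 in the fit without the block, where it also passed (adjusted p = 0.0227) and 0.214% of probe sets were called. Without replicate 2 or without replicate 3 its log2 change was 0.57 and 0.51 and the call was lost, with limma adjusted p-values of 0.149 and 0.133. No probe set passed in either of those fits. Over all 11 alternatives its adjusted p ran from 0.00593 to 0.149.

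The stretch of 250 bases before the annotated start of Ncstn is shown because it is the called gene among the 8. It lies at chr1:172082750-172082999 on the minus strand (GRCm38.p6, sequence from RefSeq) and is 63.2% G and C. Capitals mark CCGGAA, the core that ETS factors bind, on either strand. It occurs at 63 and 40 bases before the start, in opposite orientations.
Ncstn: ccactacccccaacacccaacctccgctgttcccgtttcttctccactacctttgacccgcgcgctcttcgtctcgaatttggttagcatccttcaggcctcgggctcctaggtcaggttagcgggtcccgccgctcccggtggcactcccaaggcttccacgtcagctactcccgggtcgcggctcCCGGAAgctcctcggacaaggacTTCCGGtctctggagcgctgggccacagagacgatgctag
This motif was picked after the sequence had been read, and 12.0% of 32851 RefSeq promoter stretches of the same length hold it. The window has no match to TGGGAA, the core bound by RBPJ, to the N-box CACNAG bound by Hes proteins or to the GC box GGGCGG. Those 3 motifs were found in 21.6%, 36.7% and 32.7% of all stretches. Of the 7 genes with a promoter entry, Aph1a was the other with CCGGAA in its window, at 12 bases before the start.

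The other measured gamma-secretase subunits were Psen2 and Aph1a. Psen2 encodes presenilin 2, a catalytic subunit that cuts within the membrane. Its log2 signals were 7.77, 7.61 and 7.72 in siScr and 8.15, 7.70 and 7.93 in siDicer. The siDicer array was the higher of each pair, by 0.38, 0.09 and 0.21, but the groups overlapped because the lowest siDicer array lay below 2 of the siScr arrays. Psen2 had a log2 change of 0.23 with a 95% interval of 0.06 to 0.40, and it did not pass (limma, adjusted p = 0.215). Without replicate 1 the change was 0.15. Its spread was larger in siDicer, at 7.93 ± 0.23 against 7.70 ± 0.08 (SD, n = 3 each).

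Aph1a encodes a multi-pass subunit that holds the complex together as it assembles. Its log2 signals were 8.54, 8.54 and 8.53 in siScr and 8.72, 8.51 and 8.61 in siDicer. The siScr arrays were almost identical, and the siDicer array of replicate 2 lay below all of them. The log2 change was 0.08 with a 95% interval of -0.08 to 0.23 (limma, adjusted p = 0.598), and it was 0.022 without replicate 1, 0.13 without replicate 2 and 0.041 after cyclic loess. A second probe set, which the annotation gives to both Aph1a and the gene model Gm15429, had a log2 change of 0.09 (limma, adjusted p = 0.485). On that probe set siDicer was higher in all 3 pairs and the groups did not overlap, at 8.87 to 9.02 against 8.84 to 8.86. Signal of the gene and of that model cannot be told apart there. Whether the changes of Ncstn, Psen2 and Aph1a differ from each other was not tested. Psenen, which encodes Pen-2, was not analysed here.

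**Figure D2:**
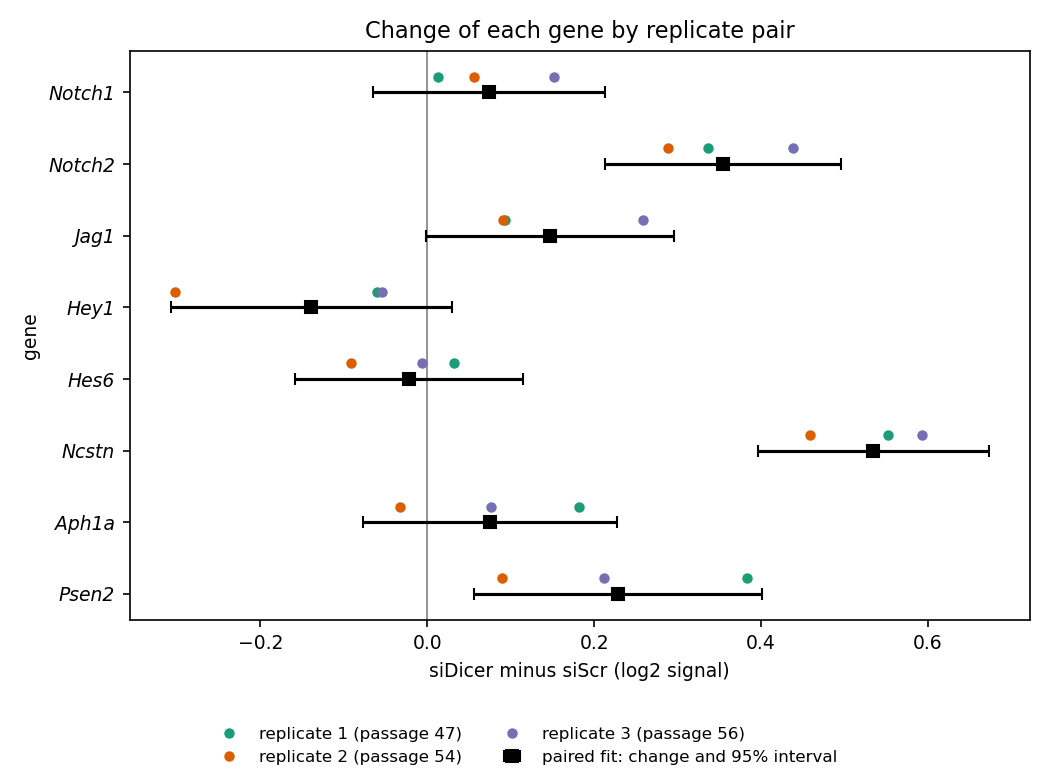
Difference siDicer minus siScr on the log2 scale (horizontal axis) for each of the 8 genes, with coloured points for the 3 replicate pairs and a black square with its 95% interval from the paired fit. The intervals of Ncstn (0.40 to 0.67), Notch2 (0.21 to 0.50) and Psen2 (0.06 to 0.40) lie above 0, and that of Jag1 starts at 0 to 2 decimals. The intervals are not adjusted for the number of probe sets tested.

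Among the receptors, Notch2 had the larger difference. Its log2 signals were 7.81, 8.08 and 7.77 in siScr and 8.15, 8.37 and 8.21 in siDicer. All siDicer arrays lay above all siScr arrays, and replicate 2 was the highest in both groups. Mean log2 signals were 8.24 ± 0.12 in siDicer and 7.89 ± 0.17 in siScr (SD, n = 3 each), a 1.28-fold difference with a 95% interval of 1.16 to 1.41. The pairs differed by 0.34, 0.29 and 0.44, but the log2 change of 0.35 did not pass over all probe sets (limma, adjusted p = 0.0603, rank 200). It passed where the fit was rerun on fewer probe sets, which also changed its SE, from 0.058 to 0.056 and 0.050. The limma adjusted p of Notch2 was then 0.0258 among those above the median level and 0.0190 among those with 1 symbol. It also passed when the variance was let to follow the signal level (adjusted p = 0.0287). Without the block the adjusted p was 0.275, the highest of its 11 alternatives.

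Notch1, the other receptor measured, had log2 signals of 7.41, 7.52 and 7.59 in siScr and 7.43, 7.57 and 7.74 in siDicer. In both groups the array of passage 47 was the lowest and that of passage 56 the highest, and the groups overlapped. The log2 change was 0.07 with a 95% interval of -0.07 to 0.21 (limma, adjusted p = 0.573). It was 0.035 without replicate 3 and 0.034 after quantile normalization. Notch2's interval starts at 0.21, where that of Notch1 ends, but the difference between the changes of both receptors was not tested. Notch3 and Notch4 were not analysed here.

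The promoter stretches of both receptor genes are shown side by side because the receptors are close relatives with unequal log2 changes. That of Notch2 lies at chr3:98013288-98013537 on the plus strand and that of Notch1 at chr2:26503823-26504072 on the minus strand (GRCm38.p6, RefSeq). Capitals mark GGGCGG, the GC box, and CACNAG, the N-box, on either strand.
Notch2: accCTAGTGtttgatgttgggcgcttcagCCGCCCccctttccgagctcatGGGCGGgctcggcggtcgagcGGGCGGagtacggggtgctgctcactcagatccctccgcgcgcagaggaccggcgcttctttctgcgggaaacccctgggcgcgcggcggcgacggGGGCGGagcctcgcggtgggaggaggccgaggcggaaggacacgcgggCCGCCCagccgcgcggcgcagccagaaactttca
Notch1: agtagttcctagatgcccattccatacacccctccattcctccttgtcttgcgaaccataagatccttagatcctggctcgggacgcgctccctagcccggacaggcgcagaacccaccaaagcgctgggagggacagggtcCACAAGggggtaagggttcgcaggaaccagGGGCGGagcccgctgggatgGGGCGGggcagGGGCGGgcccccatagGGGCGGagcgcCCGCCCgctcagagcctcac
Each stretch holds 5 GC boxes and 1 N-box. The N-box stands 247 bases before the start in Notch2 and 108 bases before it in Notch1. Neither stretch has a match to TGGGAA. Among the 7 of the 8 genes with a promoter entry, a match to TGGGAA was found in 1 of both Psen2 promoters, at 89 bases before its start.

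Jag1 encodes Jagged 1, a ligand of the Notch receptors. Its log2 signals were 6.04, 6.28 and 6.02 in siScr and 6.14, 6.37 and 6.28 in siDicer. Each pair was higher in siDicer, by 0.09, 0.09 and 0.26, while the groups overlapped through the high siScr array of replicate 2. The log2 change was 0.15 ± 0.06 (SE; limma, adjusted p = 0.319), and it was 0.092 without replicate 3.

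Hey1 and Hes6 belong to the bHLH repressor family that Notch signalling acts through. Hey1, a direct target of the freed Notch intracellular part, had log2 signals of 5.40, 5.48 and 5.39 in siScr and 5.34, 5.18 and 5.33 in siDicer. The groups did not overlap, with siDicer lower in all 3 pairs, but the pair of replicate 2 differed by -0.30 and the others by -0.06 and -0.05. The log2 change was -0.14 with a 95% interval of -0.31 to 0.03 (limma, adjusted p = 0.398), and it was -0.06 without replicate 2. The Hey1 probe set was dim, although above 4.22, the 95th percentile of olfactory and vomeronasal receptor genes taken as a gauge of background. Background signal makes differences of such dim probe sets look smaller.

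Hes6, which counteracts Hes1 and favours differentiation, had log2 signals of 7.49, 7.37 and 7.37 in siScr and 7.52, 7.28 and 7.36 in siDicer. The groups overlapped and the pairs differed in sign. The log2 change was -0.02 with a 95% interval of -0.16 to 0.12 (limma, adjusted p = 0.882), so a change of either sign within those bounds remains possible.

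Across the 8 genes, groups did not overlap for 3: Ncstn and Notch2, higher in siDicer, and Hey1, lower. Groups did not overlap for 15.9% of all probe sets, 7.57% with siDicer higher and 8.29% with siDicer lower, and for 19.3% of those with 1 symbol above background. An unadjusted p under 0.05 in limma was given by 3 of the 8 genes and by 15.7% of all probe sets. In siDicer 5 genes were higher in all 3 pairs (Notch1, Notch2, Jag1, Ncstn and Psen2), against 17.9% of all probe sets. Hey1 was lower in all 3, against 22.6% of all probe sets. The 8 genes were picked with earlier results of these arrays known, so these counts are a description.

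**Figure D3:**
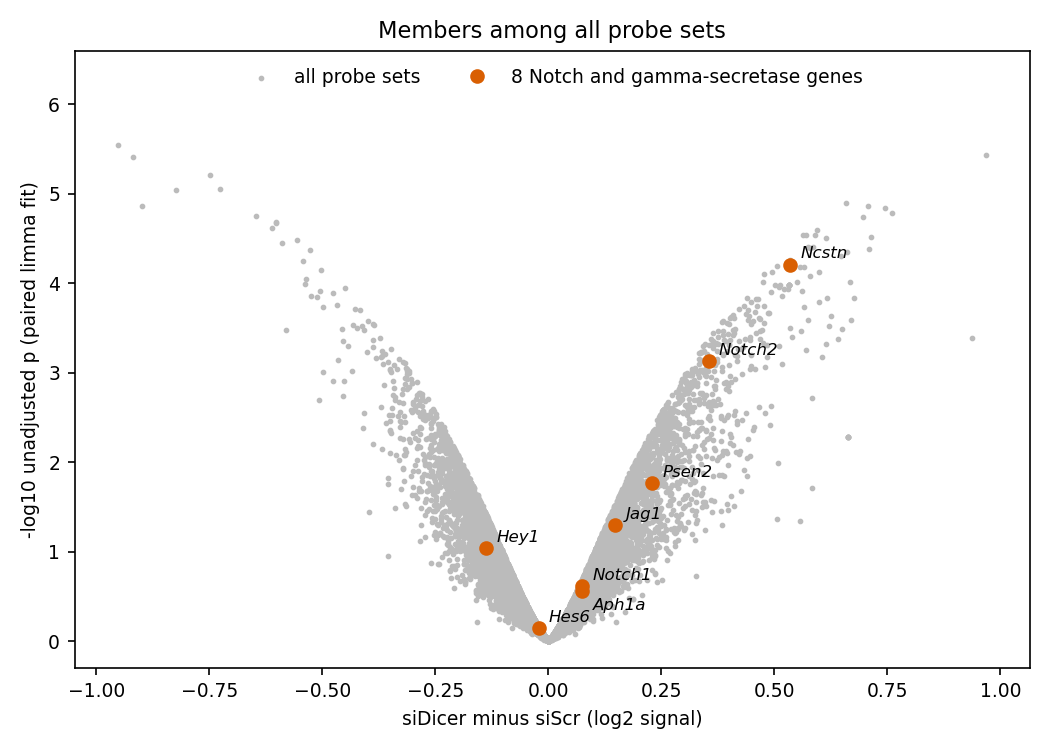
Log2 change siDicer minus siScr (horizontal axis) against -log10 of the unadjusted p of the paired fit (vertical axis) for all 16383 probe sets in grey and the 8 genes in orange. Ncstn lies high in the right arm at 0.53, Notch2 below it at 0.35, and Notch1, Aph1a and Hes6 lie near the base.

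A wider list of 101 other genes of the pathway had 22 measured in these values. Of the 22, 1 rose, 0 fell and 21 did not pass (limma with the replicate block), where 0.995% of all probe sets were called. An unadjusted p under 0.05 in limma was given by 6 of the 22 and by 15.7% of all probe sets. This list was also chosen with earlier results of these arrays known, so counts of it and of its groups are descriptions. The median log2 change of the 22 was -0.03, beside -0.01 for all probe sets. The list was grouped into ligands and related proteins, other proteins of gamma-secretase, proteins that process or modify receptors, nuclear cofactors and targets.

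The riser was Tspan5, a tetraspanin of the TspanC8 group that guides ADAM10, the protease that cuts Notch before gamma-secretase does. Its log2 signals were 7.54, 7.77 and 7.53 in siScr and 8.16, 8.22 and 8.13 in siDicer. Every siDicer array was above every siScr array. The means were 8.17 ± 0.05 and 7.62 ± 0.13 (SD, n = 3 each), a 1.47-fold difference with a log2 change of 0.56 (limma, adjusted p = 0.0282). As for Ncstn, the call was lost without replicate 2 (adjusted p = 0.149) or replicate 3 (0.133), within a range of 0.00643 to 0.149 over its 11 alternatives. Adam10 and Adam17 were not analysed here.

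All 5 measured genes of receptor processing had a log2 change above 0 and were higher in all 3 pairs, with a median of 0.19. Over all probe sets 44.4% had a change above 0 and 17.9% were higher in all 3 pairs. Poglut2, a glucosyltransferase that acts on EGF repeats, had log2 signals of 6.93, 7.21 and 7.02 in siScr and 7.33, 7.50 and 7.42 in siDicer, with no overlap. Its log2 change of 0.36 did not pass (limma, adjusted p = 0.0517, from 0.0152 to 0.216 over its alternatives). Pofut1, the fucosyltransferase that Notch receptors need for ligand binding, had a log2 change of 0.19 (limma, adjusted p = 0.220). Itch and Fbxw7, ubiquitin ligase proteins that turn over Notch, each had a log2 change of 0.08. Among other proteins linked to gamma-secretase 1 was measured, Clstn1, calsyntenin 1, with a log2 change of 0.21 and groups that did not overlap (limma, adjusted p = 0.173).

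All 6 measured Notch targets outside the 8 genes had a log2 change below 0, with a median of -0.09, and none passed in limma. Of the 6, 1 had an unadjusted p under 0.05 in limma, against 15.7% of all probe sets. A change below 0 was given by 55.6% of all probe sets. It was also given by all 3 measured ligands and related proteins and all measured members of the keratinocyte and endothelial marker lists. Of the 6 targets, 2 were lower in all 3 pairs, against 22.6% of all probe sets. Id3, an inhibitor of DNA binding that also responds to BMP signals, had the lowest p among the 6 targets. Its log2 signals were 8.35, 8.42 and 8.54 in siScr and 8.18, 8.21 and 8.39 in siDicer. The siDicer array was the lower of each pair but the groups overlapped, and the log2 change was -0.18 (limma, adjusted p = 0.209). Nrarp, a feedback inhibitor of Notch, had a log2 change of -0.12 (adjusted p = 0.430), Hes5 one of -0.10 and Heyl one of -0.09. Nrarp and Heyl, at mean log2 levels of 5.49 and 5.37, were about as dim as Hey1 at 5.35. Il2ra of this list lay below the background gauge. Hes1, Hes7 and Hey2 were not analysed here.

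The 3 measured ligands and related proteins, Dll4, Mfap2 and Dner, had log2 changes from -0.08 to -0.03, and 0 passed in limma or at an unadjusted p under 0.05. Of 7 nuclear cofactors 0 passed in limma, and their median log2 change was -0.01. An unadjusted p under 0.05 in limma was given by 1 of the 7, against 15.7% of all probe sets. That gene was Bend6, a corepressor that binds RBPJ, with a log2 change of -0.18 (limma, adjusted p = 0.247). Cir1, another corepressor of RBPJ, had one of 0.13, the RBPJ relative Rbpjl one of -0.08, and Maml3, a Mastermind coactivator, one of -0.02. Rbpj itself was not analysed here.

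Gamma-secretase also cuts membrane proteins other than Notch. Of 32 such substrates listed, 8 were measured: 1 rose, 0 fell and 7 did not pass, with a median log2 change of 0.20. Calls were made for 0.995% of all probe sets. An unadjusted p under 0.05 in limma was given by 5 of the 8, against 15.7% of all probe sets. Of the 8, 6 lay above the background gauge, as did 57.8% of all probe sets. The list was chosen with earlier results of these arrays known, so its counts are a description. The riser was Cd44, the hyaluronan receptor, with log2 signals of 8.39, 8.33 and 8.42 in siScr and 8.79, 8.65 and 8.84 in siDicer. The groups did not overlap, the difference was 1.30-fold and the log2 change 0.38 (limma with the replicate block, adjusted p = 0.0486). That call did not hold without the block (adjusted p = 0.0944), after quantile normalization (0.0670), after cyclic loess (0.0568) or without any single replicate, where it was 0.0901 to 0.205. Over its 11 alternatives the lowest adjusted p was 0.0136.

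Sdc3, the heparan sulphate proteoglycan syndecan 3, had log2 signals of 8.04, 8.09 and 8.12 in siScr and 8.37, 8.35 and 8.42 in siDicer, with a log2 change of 0.29 (limma, adjusted p = 0.0786). Epha4, a receptor tyrosine kinase for ephrins, had a log2 change of 0.25 (limma, adjusted p = 0.110) with overlapping groups. Il1r1 and Sort1 had log2 changes of 0.24 and 0.16 and did not pass. The receptor genes Erbb4 and Lrp1b lay below the background gauge.

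**Figure D4:**
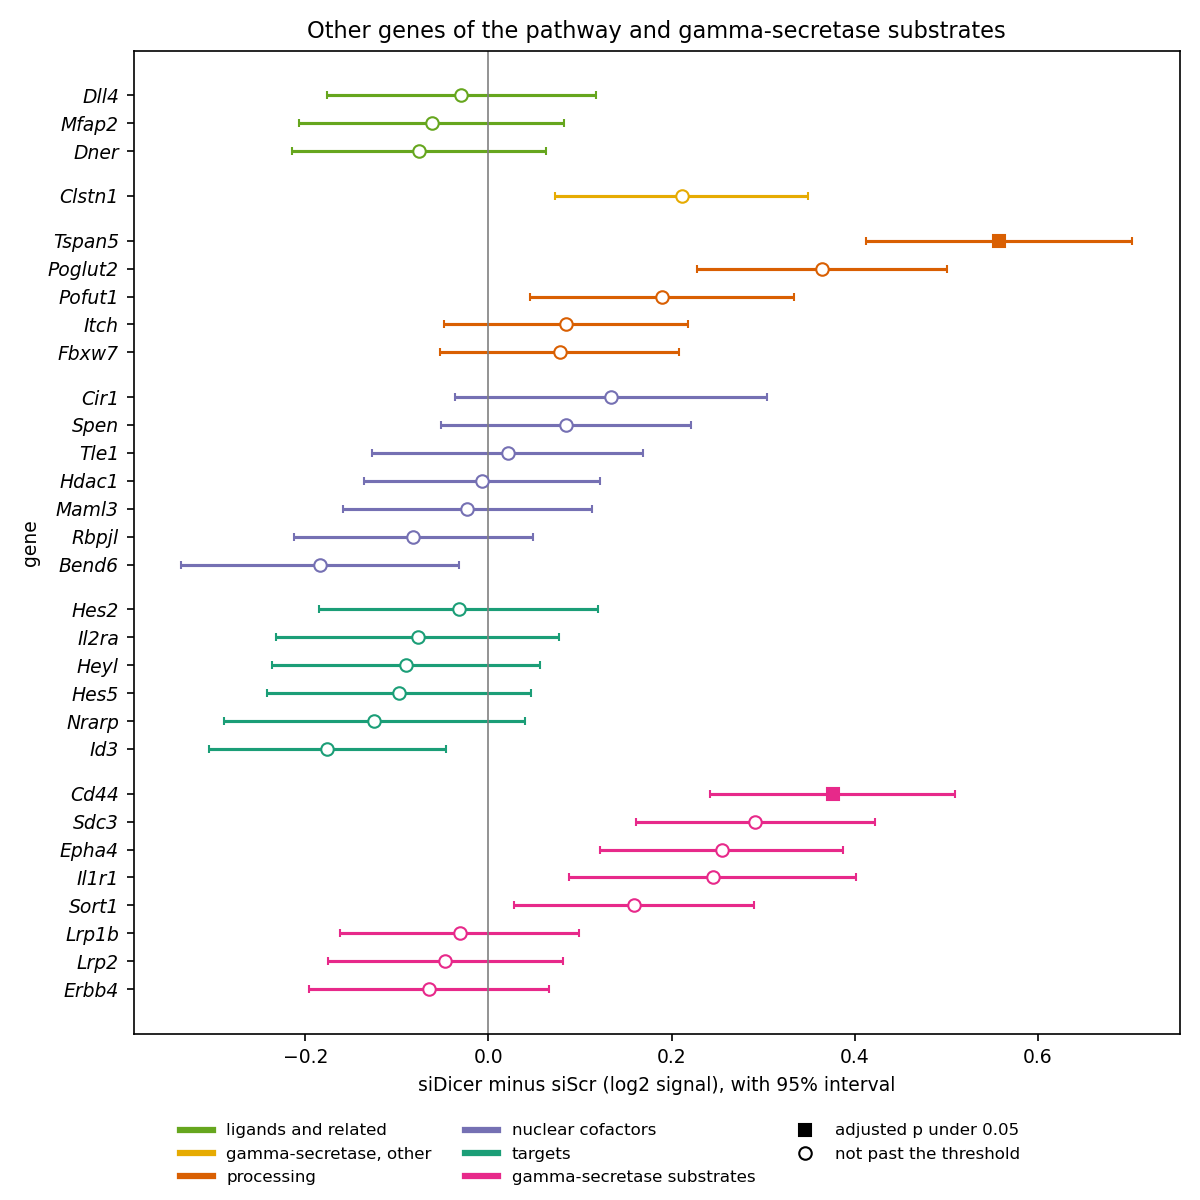
Log2 change siDicer minus siScr with its unadjusted 95% interval (horizontal axis) for the 22 other measured pathway genes and the 8 measured gamma-secretase substrates, grouped by colour. Filled squares passed the threshold (Tspan5 at 0.56 and Cd44 at 0.38) and open circles did not; the 5 processing genes lie right of 0 and the 6 targets left of it.

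Notch1 and Jag1 are reported targets of miR-34a, one of the microRNAs that Dicer matures. Its sequence is shown with the seed, bases 2 to 8, in capitals (RefSeq, GRCm38.p6, from chr4:150068473-150068494 on the plus strand).
mmu-miR-34a-5p: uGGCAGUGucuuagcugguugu
Of 9 microRNA genes listed for reported links to the pathway, Mir34a was the 1 measured. The array reads transcripts of the Mir34a gene, not the mature microRNA. Its probe set gave log2 signals of 3.12 ± 0.05 in siScr and 3.14 ± 0.06 in siDicer (SD, n = 3 each), under the background gauge of 4.22. Mature miR-34a was not analysed here.

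Among melanocyte markers, Tyrp1 was at 12.8 in siScr and 12.9 in siDicer and Pax3 at 10.6 in both groups on the log2 scale. The level was not as high for every marker: mean log2 levels over all arrays were 10.3 for Mlph, 7.28 for Lef1 and 6.69 for Mreg. Of the 6 markers, Lef1 and Mreg rose (limma, adjusted p = 0.0337 and 0.0435). The other 4 did not pass, among them Mlph with a log2 change of -0.12. Without the block 0 of the 6 passed. Over all probe sets 0.995% were called in the paired fit, 0.757% higher in siDicer, and 0.214% without the block.

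Of 8 immune markers 0 passed in limma, and 3 had an unadjusted p under 0.05: C1qa, Fcer1g and C1qb, with log2 changes of -0.29, -0.25 and -0.20. Such a p was given by 15.7% of all probe sets. Ptprc, the defining marker, was at 2.84 in siDicer and 2.85 in siScr, under the gauge. Of the 8 immune markers, 5 lay above the gauge. The summed log2 signals of the list were lower in siDicer, at 33.8 to 34.3 against 34.8 to 35.0, with no overlap. Log2 changes were below 0 for 6 of the 8 markers and for 55.6% of all probe sets. Of 7 fibroblast markers 0 passed in limma, and 2 had an unadjusted p under 0.05: Postn and Col5a1, with log2 changes of 0.25 and 0.19 and siDicer higher in all 3 pairs. The other 5 had log2 changes below 0, and the median of the 7 was -0.04. Prrx1, the next by p, lay under the gauge and had a log2 change of -0.11. Summed fibroblast signals lay at 36.4 to 37.6 in each group, and by pair siDicer was higher by 0.01, 0.40 and 0.02.

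Of 4 keratinocyte markers 0 passed in limma or at an unadjusted p under 0.05. Log2 changes were -0.08 for Lor, -0.10 for Flg and -0.07 for Ivl, which lay under the background gauge. Summed signals of the 4 markers lay at 21.6 to 21.9 in siDicer and 21.9 to 22.1 in siScr and did not overlap. How often such sums separate for lists of other genes was not tested. The 3 endothelial markers Tie1, Emcn and Tek had log2 changes of -0.07, -0.05 and -0.03, and 0 passed in limma or at an unadjusted p under 0.05. Emcn and Tek lay under the background gauge. Summed signals of the 3 markers overlapped, at 12.2 to 12.5 against 12.4 to 12.6, and the pairs differed by -0.07, -0.21 and -0.16. The part of these markers in the results above was not tested.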

How the data were processed

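Each array's deposited column gives a log2 signal for every probe set. The submitters' processing notes name Affymetrix Expression Console; its version, background correction, normalization and the probe sets' genome build were not given in the sources used here. Array medians were nearly equal, so a shift common to most transcripts could have been removed before deposit. The number of arrays limits the precision.

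Of 16383 probe sets, 7530 had 1 symbol after updating 230 by Entrez number, 7439 of them on chromosomes 1 to 4 in the RefSeq table. Values were tested as deposited with limma 3.58.1 in R 4.3.3 (lmFit, eBayes), with replicate number as a fixed block and Benjamini-Hochberg adjustment over all probe sets. The numbers go with passage in the labels, and same-numbered arrays deviated together from their group means, with r of 0.44, 0.41 and 0.24. Genes past the threshold and the 3 of smallest p in each list were named; Heyl, Itch, Fbxw7, Maml3, Il1r1, Sort1, Erbb4, Lrp1b, Tyrp1, Pax3, Ptprc and Il2ra were named after their values were seen. The 8 genes and the lists were chosen with earlier results of these data known. The procedure was tested on simulated data. Alternatives were no block, quantile, median centring and cyclic loess, array weights, an intensity trend, fewer probe sets and leaving out each replicate pair.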

Additional observations from a re-analysis of the deposited data

How the results depend on the processing

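Cyclic loess was chosen after seeing the data. The count of called probe sets was 163 with the replicate block and 35 without it. The fits on fewer probe sets called 388 of 8191 above the median level and 281 of 7530 with 1 symbol. On all 16383 probe sets the count was 84 after quantile normalization, 93 after cyclic loess and 302 with an intensity trend. It was 0 to 157 when a replicate was left out. It was 0 without replicate 2 and without replicate 3 (2171 and 1814 at an unadjusted p under 0.05 in limma), fits with fewer samples. Called genes among the 8 numbered 2 above the median level, with 1 symbol or with the trend, and 0 to 1 when a replicate was left out. Of the other pathway genes 2 were called in those 3 settings, after centring or with array weights, and 0 to 1 when a replicate was left out. Of the gamma-secretase substrates 0 were called without the replicate block, after quantile normalization or after cyclic loess, and 0 without any single replicate. Of the same substrates 2 were called above the median level or with the trend and 3 with 1 symbol. Above the median level, 5 of the 8 substrates and 20 of the 22 other pathway genes were tested. Hes6 turned to 0.013 without replicate 2 (limma, adjusted p = 0.942) and was at -0.048 without replicate 1. The other 7 genes kept their direction in every alternative run. Leaving out either array of a pair is the same as leaving out the pair in this fit. For all other changes the cause was not tested.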

Other observations

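For each of the 8 genes, the named gene with the most similar log2 profile was sought among 3561 genes above the background gauge, by Pearson r over the 6 arrays. The arrays share passages and normalization, and the highest of so many correlations over 6 points is high for any profile, so these are descriptions. Ncstn was nearest to Extl2 (r = 0.997), which rose by 0.57 on the log2 scale (limma with the replicate block, adjusted p = 0.0282). Notch2 was nearest to Osbpl2 (r = 0.997), Jag1 to Sdhc (r = 0.995) and Psen2 to Slc6a17 (r = 0.987). Notch1 was nearest to Wdr76 (r = 0.988), Hes6 to Plekhg5 (r = 0.989) and Aph1a to Fam219a (r = 0.984). Hey1 had the lowest such value, with Wfdc10 (r = 0.966). Of these 8 nearest genes Extl2 alone passed the threshold in limma.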
